A study of Homo sapiens with 12 samples.

Results

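Neuroendocrine marker genes were followed in LNCaP cells, an established human prostate cancer line that depends on androgen, by RNA sequencing of poly(A) RNA. The 9 genes ENO2, CHGA, CHGB, SYP, SCG2, SCG3, NTS, REST and SYT4 were taken by their symbols from the 63677 gene identifiers counted in each library, and all 9 were found. A TALEN, an engineered nuclease aimed at the start codon of Bag-1L, had been used to make the Bag-1L knockout (KO) line. Bag-1L is the longest protein made from BAG1. The KO cells were isolated as single clones, and the control cells had received the vector, without it being stated that they were a single clone. A difference between the lines thus cannot be told apart from a difference between clones. Each line was grown in full medium (FM), or was kept for 72 h in serum stripped of hormone with charcoal and then given ethanol (EtOH, the vehicle) or 10 nM dihydrotestosterone (DHT, an androgen) for 16 h. Each of the 6 groups (control FM, control EtOH, control DHT, KO FM, KO EtOH and KO DHT) had 2 biological replicates. The FM groups differed from the EtOH groups in serum and vehicle as well as in hormone. The base medium also differed, since the starvation medium was free of phenol red. The DHT groups had been through the same starvation as the EtOH groups.

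Neuroendocrine cells store peptide hormones in dense-core granules and release them by regulated exocytosis. Chromogranins and secretogranins are the matrix proteins of these granules, synaptophysin is a protein of the smaller synaptic-like vesicles, and synaptotagmin 4 is a member of the calcium sensor family of vesicle fusion that is found on secretory granules. Prostate tumours that escape androgen deprivation can acquire such features, and LNCaP cells deprived of androgen are a long-used culture model of the process. REST, a zinc finger repressor, binds the element RE1 and keeps neuronal and granule genes silent in other cells, recruiting CoREST proteins, histone deacetylases and a histone demethylase.

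The RE1 element was searched for around the genes, since it is the sequence through which REST acts. The letters searched were CAGCACC, then any 2 bases, then GGACAG, on both strands and with at most 1 mismatch, within 2000 bases of the annotated gene start in GRCh37. The letters were present without a mismatch, on the strand of the gene, at SYT4, SYP, CHGA and CHGB, that is at 4 of the 9 genes. Of the windows of 19486 protein-coding genes, 2.87% held a match by the searched rule, with at most 1 mismatch on either strand. That rule is looser than the exact match on the gene's strand seen at these 4 genes. The 4 sites are shown because they let the shared core be compared directly, with the matched letters in capitals and 7 flanking bases on each side.
SYT4: ttcccttCAGCACCtcGGACAGaacacgc
SYP: cgcgctcCAGCACCgtGGACAGagcccgc
CHGA: gagttttCAGCACCgcGGACAGcgcctcc
CHGB: ggccggtCAGCACCgcGGACAGcgccagc
The SYT4 letters lay in a noncoding part of an exon (GRCh37 chr18:40857262-40857276, minus strand), 224 bases into the gene. Those of SYP lay in an intron (chrX:49056585-49056599, minus strand), 78 bases into the gene. The matches of CHGA (chr14:93389870-93389884, plus strand) and CHGB (chr20:5892352-5892366, plus strand) were also intronic, 375 and 196 bases into the gene. No match was found in the windows of ENO2, SCG2, SCG3, NTS and REST, which says only that the letters at this spacing are not there. The 300 bases around the SCG3 start in GRCh38.p14 hold both CAGCACC and GGACAG on the gene's strand. They lie farther apart than the 2 bases searched, and other spacings were not searched.

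Letters of 2 other elements were read in the same windows. The cAMP response element, through which granule genes respond to cyclic AMP, was searched as TGACGTCA, which reads the same on both strands, with no mismatch and was found at CHGA, CHGB, SCG2 and SYP, against 5% of all windows. It lay just before the gene start in the first 3 of these, 54, 107 and 69 bases upstream, and the sites are shown with 10 flanking bases on each side.
CHGA: gcggcaccgcTGACGTCAtttccggggt
CHGB: tgctgcttcgTGACGTCAgggctgagct
SCG2: ctgaacccggTGACGTCAgtgtggcagt
These sites were at chr14:93389441-93389448 (plus strand), chr20:5892049-5892056 (plus strand) and chr2:224467141-224467148 (minus strand) of GRCh37, all outside the gene. In SYP the letters lay 1431 bases into the gene, and in none of the genes did they overlap the RE1 letters. The androgen response element (AGAACA, any 3 bases, TGTTCT, at most 1 mismatch, both strands) was found at 0 of the 9 genes and in 1.52% of all windows. The RefSeq promoter windows of GRCh38.p14 run from 250 bases before to 50 bases after a start. They covered 7 of the 9 genes (not CHGB and SCG2). There the RE1 letters, at the searched spacing, were at 0 genes and in 0.238% of 27305 windows. The androgen response element was at 0 genes and in 0.176%, and the cAMP response element at CHGA and in 1.98%.

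**Figure D1:**
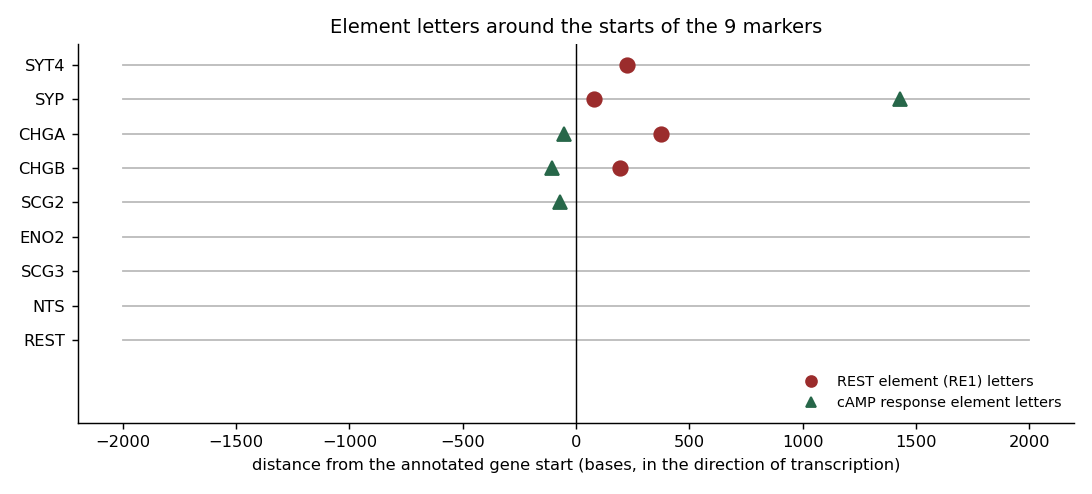
Position of the RE1 letters (circles) and the cAMP response element letters (triangles) in the windows of the 9 markers, in bases from the annotated gene start in the direction of transcription. The 4 RE1 matches lie between 78 and 375 bases after the start, and 3 of the 4 cAMP response element matches lie between 54 and 107 bases before it.

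The libraries held between 20826843 and 30354666 counts assigned to genes. A gene was called detected in a sample with more than 3 counts, which is 0.0988 to 0.144 CPM (counts scaled to a common total) at these depths. Normalized counts are counts divided by a size factor for each library, and levels were compared between genes only after division by the exon length in kilobases. Tests were DESeq2 Wald tests in 1 fit of the 12 libraries with Benjamini-Hochberg adjustment over all genes tested, and a gene passed where the adjusted p was at most 0.05 and the fold change at least 1.5. BAG1, the targeted gene, went from 2202 ± 708 normalized counts (SD, n = 2) in control EtOH to 1147 ± 62.5 in KO EtOH. It was lower in KO after EtOH and after DHT (log2 fold change -0.94 and -1.14), while the difference of -0.43 in FM did not pass. These counts cover all protein forms of BAG1 together. The luminal prostate genes KRT8, KRT18, EPCAM, HOXB13 and KLK3 had at least 2935 counts in every library, while basal KRT5 (at most 3 counts), TP63 (at most 4) and KRT14 (at most 28) and leukocyte PTPRC (at most 1) were scarce. The luminal keratins moved with treatment: KRT8 and KRT18 fell with starvation in KO (-0.74 and -0.84 on the log2 scale) and did not pass in control (-0.07 and -0.34), and they rose with DHT in control (1.88 and 1.54) and in KO (1.36 and 1.22). Their part in the marker results was not tested. Of the stromal genes, DCN had at most 9 counts and COL3A1 at most 36, and COL1A1 had 378 to 1003 and rose in EtOH relative to FM (0.81 in control and 0.86 in KO on the log2 scale). COL1A1 thus moved in the same direction as ENO2 and SYT4. The summed normalized counts of these 4 stromal and leukocyte genes ran from 392 to 447 in the FM libraries, from 718 to 790 in EtOH and from 720 to 1021 in DHT, almost all of it COL1A1, and the part of such RNA in the results was not tested. Replicates were the farthest apart in control EtOH, where genes differed by a median of 0.238 on the log2 scale, against 0.0765 to 0.172 in the other pairs.

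The 9 markers fell into 2 kinds in these cells. SYT4, REST, ENO2 and SYP were detected in all 12 libraries, and the granins and neurotensin were at or near the floor. Per kilobase, SYT4 made up 97.5% of the summed level of the 9 genes and ranked 65th of 25219 genes. REST made up 2.02%, ENO2 0.396% and SYP 0.0672%. The means were 10148 normalized counts per kb for SYT4, 209.9 for REST and 41.3 for ENO2, and the order SYT4, REST, ENO2, SYP was the same in the group means of all 6 groups.

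SYT4 (ENSG00000132872, GRCh37 chr18:40847857-40857500, minus strand) rose in starved cells of both lines. In control its normalized counts were 25014 and 26175 with FM, and 57323 and 59748 with EtOH. In KO they were 23515 and 23743 with FM, and 58178 and 57818 with EtOH. The FM and EtOH libraries did not overlap in either line, and each line's EtOH libraries were above all FM libraries. Starvation was associated with a 2.29-fold higher level in control (95% interval 1.97 to 2.65, adjusted p = 5.66e-26) and a 2.45-fold higher level in KO (2.12 to 2.85, adjusted p = 1.04e-30). These are bulk samples, so more cells that hold an RNA and more RNA per cell cannot be told apart.

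ENO2 (ENSG00000111674, chr12:7022909-7032861, plus strand) encodes neuron-specific enolase, the glycolytic isoenzyme of neurons and neuroendocrine cells and a serum marker of neuroendocrine tumours. It had the larger fold in starvation. Control FM had 51.9 and 42.8 normalized counts and control EtOH 167 and 145. KO FM had 74.6 and 72.3 and KO EtOH 352 and 348. All EtOH libraries were above all FM libraries, and the KO EtOH libraries were the highest of the 12. The rise was 3.32-fold in control (2.41 to 4.57, adjusted p = 5.3e-12) and 4.76-fold in KO (3.58 to 6.32, adjusted p = 2.41e-25). The annotated span of ENO2, introns included, shares 497 bases with that of LRRC23 on the same strand. Whether exons of both lie there was not examined, and reads over both genes would be counted for neither. LRRC23 itself had 382 to 639 counts.

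SYP (ENSG00000102003, chrX:49044268-49056677, minus strand), which encodes synaptophysin, was low in every group. Control FM had 30.9 and 20.4 normalized counts and control EtOH 48.5 and 45.8. KO FM had 49.4 and 57.0 and KO EtOH 45.2 in each library. In the control line the FM libraries were below the EtOH libraries, while in KO the EtOH libraries were below the FM libraries. The rise in control passed narrowly (log2 fold change 0.89, SE 0.36, adjusted p = 0.0426) and no longer passed in 14 of 19 alternative settings, among them the fit of the compared groups alone (adjusted p = 0.218) and leaving out control FM replicate 2 (log2 fold change 0.61, adjusted p = 0.373). In KO the log2 fold change was -0.23 (95% interval -0.89 to 0.42, adjusted p = 0.663).

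REST (ENSG00000084093, chr4:57774042-57832974, plus strand), the repressor, passed in neither line. Control FM had 2330 and 2357 normalized counts, control EtOH 2173 and 1625, KO FM 1941 and 1858, and KO EtOH 1902 and 1993. Both control EtOH libraries were below the control FM libraries, and they lay far apart, while the KO groups overlapped. The log2 fold change in starvation was -0.30 in control (95% interval -0.60 to -0.01, adjusted p = 0.103) and 0.04 in KO (-0.26 to 0.33, adjusted p = 0.896). Without control EtOH replicate 1 the control value was -0.53 (adjusted p = 0.000521), and without replicate 2 it was -0.11 (adjusted p = 0.603), and neither reached the 1.5-fold minimum. The annotated span of REST, introns included, overlaps that of NOA1 by 3459 bases on the opposite strand. Whether exons lie there was not examined. The strand setting of the counting was not stated, so any reads from this stretch may not have been separated.

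**Figure D2:**
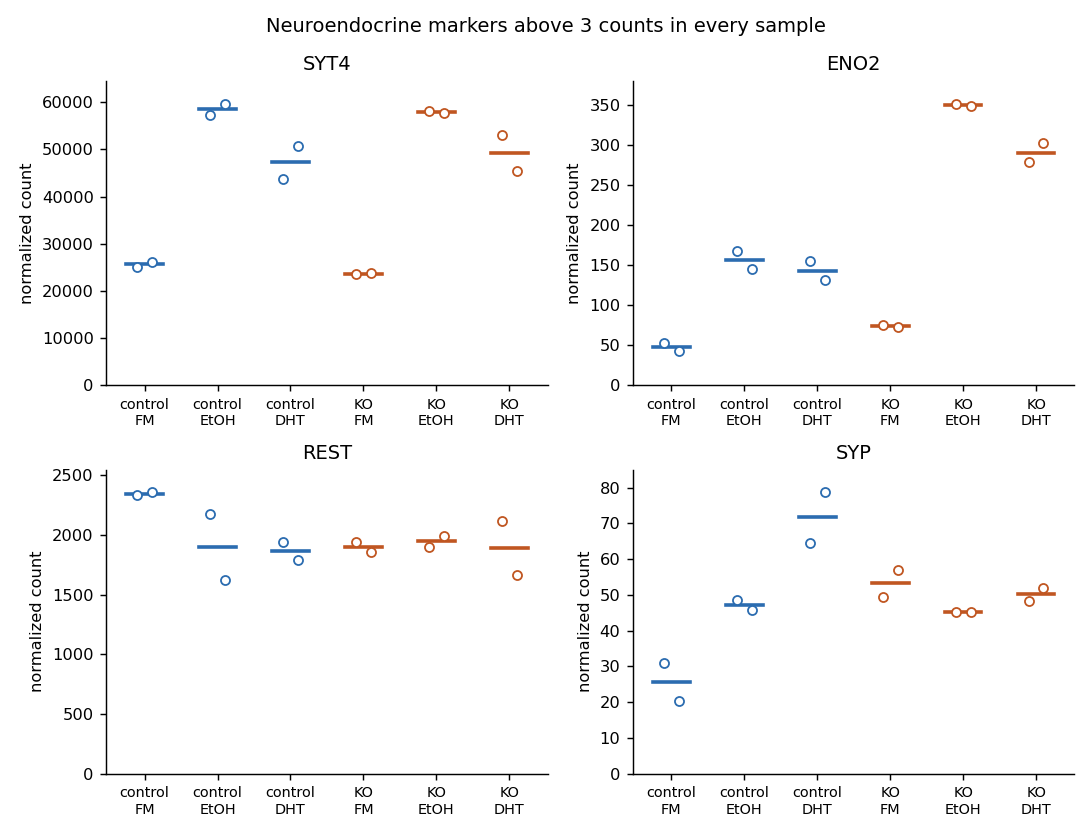
Normalized counts (vertical axes, from 0) of SYT4, ENO2, REST and SYP in the 12 libraries, with circles for replicates, short bars for the mean of 2, blue for control and orange for KO. SYT4 and ENO2 were higher in all EtOH and DHT libraries than in all FM libraries, and ENO2 was highest in KO EtOH, at 352 and 348.

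In starvation 3 of the 9 markers rose in control (SYT4, ENO2 and SYP) and 2 in KO (SYT4 and ENO2), none fell, and 6 of the 9 had an adjusted p in these comparisons. Over all genes tested, 11.5% rose in control and 9.68% in KO. A count of 3 or 2 of 9 is a small number to set against these shares. The median log2 fold change of the 6 tested markers was 0.29 in control and -0.09 in KO, against 0.01 in both lines over all genes. The 6 include REST, the repressor, and the scarce CHGB and SCG3 (means of 6.06 and 5.67 normalized counts). Their median is thus not a shift of the markers as a set.

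The granule genes were scarce in every group, so their changes could hardly be measured. CHGA (ENSG00000100604, chr14:93389495-93401630), the chromogranin used to diagnose neuroendocrine tumours, had 4 and 1 counts in control FM, 1 and 1 in control EtOH, and 1 and 2 in control DHT. In KO it had 2 and 5 counts in FM, 0 and 4 in EtOH, and 3 and 0 in DHT, and it was detected in 3 of the 12 libraries. In neither line were the FM and EtOH libraries separated. SCG2 (ENSG00000171951, chr2:224461658-224467079), the precursor of secretoneurin, had 0 to 6 counts and was detected only in KO EtOH replicate 2, with 6 counts. NTS (ENSG00000133636, chr12:86268073-86276770), the precursor of the peptide neurotensin, was at 0 in 11 libraries and had 3 counts in KO EtOH replicate 1, at the floor. Its sum of 3 was under the minimum of 10 for the fit, so it had no test, and DESeq2 gave no adjusted p for CHGA and SCG2 in any of the 11 comparisons.

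CHGB (ENSG00000089199, chr20:5892156-5905999), the second chromogranin of the granule matrix, was detected in 9 libraries. Control cells had 11 and 6 counts with FM, and 5 and 7 with EtOH. KO cells had 8 and 3 with FM, and 2 and 2 with EtOH. The KO EtOH libraries were the lowest of the 12, but a fall was not detectable at this depth, with a log2 fold change of -1.40 (95% interval -3.61 to 0.81, adjusted p = 0.383). In control it was -0.61 (-2.42 to 1.20, adjusted p = 0.665). DHT groups had 5 and 7 counts in control and 5 and 12 in KO.

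SCG3 (ENSG00000104112, chr15:51973689-52013223), which tethers chromogranin aggregates to the granule membrane, was detected in 9 libraries. It had 6 and 6 counts in control FM, 1 and 0 in control EtOH, and 3 and 4 in control DHT. KO had 7 and 7 counts in FM, 5 and 7 in EtOH, and 15 and 9 in DHT. The control EtOH libraries were the lowest of the 12 and the KO DHT libraries the highest. The fitted difference of control EtOH from control FM was -3.68 on the log2 scale (95% interval -6.91 to -0.45, adjusted p = 0.0685) and did not pass, while edgeR's quasi-likelihood test gave -3.37 with an adjusted p of 0.0121. Between KO and control in EtOH edgeR gave 3.36 (adjusted p = 0.0417), and DESeq2 gave no adjusted p. Both rest on a group with 1 count in total, at the floor.

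**Figure D3:**
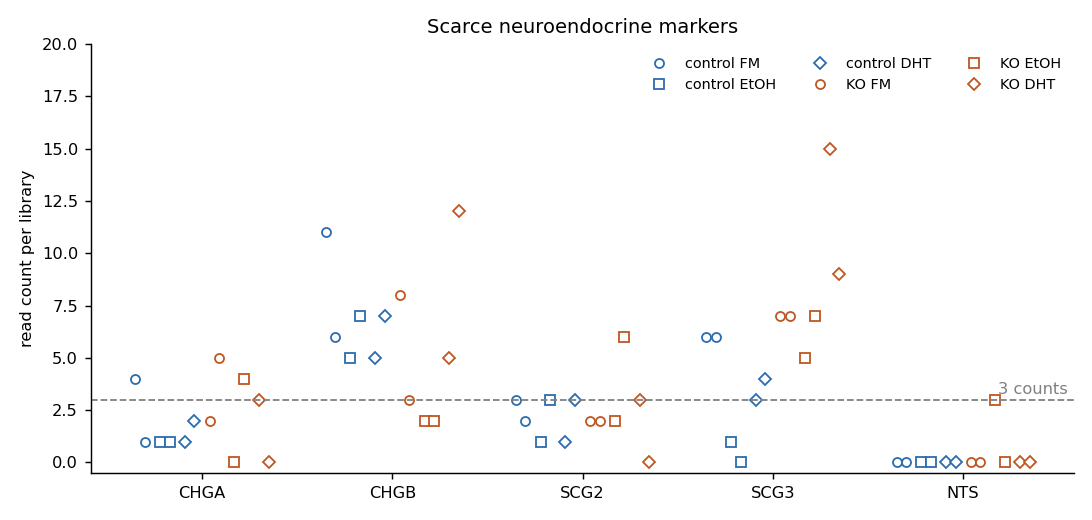
Read counts (vertical axis) of CHGA, CHGB, SCG2, SCG3 and NTS in each of the 12 libraries, with circles for FM, squares for EtOH, diamonds for DHT, blue for control and orange for KO. The dashed line marks 3 counts, and no library exceeds the 15 counts of SCG3 in KO DHT.

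DHT given after starvation did not return SYT4 or ENO2 to the level of FM. For SYT4, control DHT had 43789 and 50777 normalized counts and KO DHT 53080 and 45454, below the EtOH libraries of its line and above all FM libraries. The decrease from EtOH had an adjusted p of 0.0273 in control but was under the 1.5-fold minimum (log2 fold change -0.31, SE 0.11), and in KO it was -0.24 (SE 0.11, adjusted p = 0.157). For ENO2, control DHT had 154 and 131, overlapping control EtOH, and KO DHT 278 and 302, below both KO EtOH libraries. Its log2 fold change from EtOH was -0.13 in control (95% interval -0.52 to 0.26, adjusted p = 0.745) and -0.27 in KO (-0.62 to 0.08, adjusted p = 0.412). These intervals leave out a return to the FM level, which would need a fall of 1.73 in control and 2.25 in KO.

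SYP did not pass with DHT. Control DHT had 64.6 and 78.7 normalized counts, above all other libraries, and KO DHT 48.4 and 51.8. The log2 fold change from EtOH was 0.60 in control (95% interval -0.03 to 1.24, adjusted p = 0.2) and 0.15 in KO (adjusted p = 0.886). REST had 1944 and 1789 normalized counts with DHT in control and 2115 and 1667 in KO, a log2 difference from EtOH of -0.02 in control (-0.32 to 0.27) and -0.04 in KO (-0.33 to 0.25). Of the 9 markers, 4 had a DESeq2 adjusted p for DHT against EtOH. In either line 0 passed by DESeq2 and 0 by edgeR, and 1 in each line, SYT4, had an unadjusted p under 0.05. Of all genes, 11.4% changed with DHT in control and 7.68% in KO, in either direction. Androgen response itself was present: FKBP5, KLK3, KLK2 and TMPRSS2 fell in EtOH relative to FM and rose with DHT in both lines, FKBP5 by 4.02 on the log2 scale in control.

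Against FM, the DHT groups kept most of the difference that the EtOH groups had. The EtOH and DHT comparisons with FM share the FM libraries, and those of EtOH with FM and DHT with EtOH share the EtOH libraries, so their values are given side by side and are not independent. SYT4 was 1.85-fold higher in control DHT than in control FM (adjusted p = 2.28e-14) and 2.09-fold higher in KO (adjusted p = 2.19e-20). ENO2 was 3.03-fold higher in control (adjusted p = 4.53e-10) and 3.94-fold higher in KO (adjusted p = 2.5e-19). SYP was 2.81-fold higher in control DHT than in control FM (1.74 to 4.54, adjusted p = 0.000187), a call that held in all 19 alternatives, and its log2 fold change was -0.09 in KO (adjusted p = 0.895). Hence, of the 4 markers with an adjusted p, 3 passed in control and 2 in KO, against 10.6% and 6.8% of all genes that were higher. REST was -0.33 in control (adjusted p = 0.0753) and -0.01 in KO (adjusted p = 0.987).

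Between the lines, ENO2 was the marker that differed after starvation. The KO EtOH libraries, at 352 and 348 normalized counts, were all above the control EtOH libraries at 167 and 145, and the KO level was 2.24-fold higher (1.73 to 2.89, adjusted p = 8.13e-08). After DHT it was 2.03-fold higher (1.56 to 2.63, adjusted p = 3.83e-06). In FM the KO libraries were also above the control libraries, with a log2 fold change of 0.64 (95% interval 0.15 to 1.13) that missed the threshold (adjusted p = 0.0561) and passed in 5 of 19 alternatives, edgeR among them. In each comparison of the lines 4 of the 9 markers had an adjusted p. The 1 marker that passed in EtOH and the 1 in DHT compare with 2.8% and 4.66% of all genes higher in KO. In FM the 1 marker was SYP, 2.08-fold higher in KO (1.28 to 3.40, adjusted p = 0.0244), beside 5.41% of all genes. This call was lost in 7 of 19 alternatives, with an adjusted p of 0.391 without control FM replicate 2.

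SYT4 showed no difference between the lines that passed. The log2 difference of KO from control was -0.01 in EtOH (95% interval -0.23 to 0.20), 0.06 in DHT (-0.15 to 0.27) and -0.12 in FM (-0.33 to 0.10). For REST the differences were 0.04 in EtOH (-0.26 to 0.33), 0.02 in DHT (-0.27 to 0.31) and -0.30 in FM (-0.60 to -0.01, adjusted p = 0.143). SYP differed by -0.06 in EtOH (-0.72 to 0.60) and -0.52 in DHT (-1.14 to 0.11), neither past the threshold.

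Whether the lines responded differently was tested as the difference of the responses. For starvation it was 0.52 for ENO2 (95% interval -0.10 to 1.14, adjusted p = 0.412), 0.10 for SYT4 (-0.20 to 0.40, adjusted p = 0.776), 0.34 for REST (-0.07 to 0.75, adjusted p = 0.431) and -1.12 for SYP (-2.09 to -0.15, adjusted p = 0.246), as KO minus control on the log2 scale. For DHT it was -0.14 for ENO2 (-0.67 to 0.39), 0.07 for SYT4 (-0.23 to 0.37), -0.02 for REST (-0.43 to 0.40) and -0.46 for SYP (-1.36 to 0.45). Of the 9 markers, only these 4 had a DESeq2 adjusted p. For either response 0 passed by DESeq2 and 0 by edgeR, with 1 (SYP) and 0 at an unadjusted p under 0.05. Of all genes, 1.39% passed for starvation and 0.408% for DHT.

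**Figure D4:**
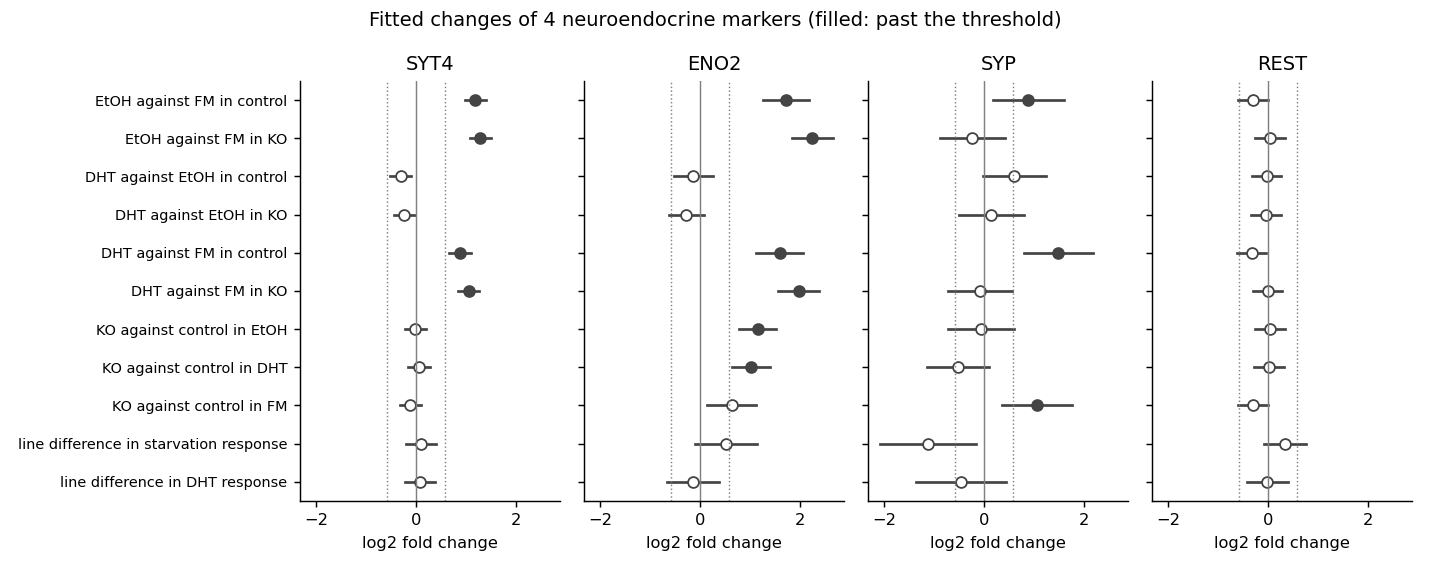
Log2 fold changes (horizontal axes) of SYT4, ENO2, SYP and REST in the 11 comparisons, with 95% intervals as lines, filled circles where the threshold was passed and dotted lines at a 1.5-fold change. ENO2 was past the threshold in 6 comparisons and SYT4 in 4, SYP in 3 and REST in 0.

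The other enolase genes, ENO1 of most tissues and ENO3 of muscle, passed in 0 of the 11 comparisons. In starvation ENO1 had a log2 fold change of -0.37 in control (adjusted p = 0.00463) and -0.56 in KO (adjusted p = 8.11e-06), under the fold minimum, and ENO3 of 0.43 in control (adjusted p = 0.0272) and 0.14 in KO (adjusted p = 0.563). ENO1 was nearly all of the enolase RNA, so the share of ENO2 moves with ENO1 as well. Per kilobase, ENO2 was 0.0997% ± 0.0131 (SD, n = 2) of the 3 enolases in control FM and 0.428% ± 0.101 in control EtOH. It was 0.171% ± 0.00729 in KO FM and 1.18% ± 0.0657 in KO EtOH. After DHT its share was 0.33% ± 0.0487 in control and 0.875% ± 0.0124 in KO. Its highest share in a library was 1.23%, in KO EtOH.

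Of 67 related genes, 39 were above 3 counts in every library and 10 at or below 3 counts in every library. Those at most 3 counts included the neuropeptide genes GRP, CALCA, SST, VIP and ADCYAP1, the processing enzyme PCSK2 and the lineage factors NEUROD1, NKX2-1 and MYCN. INSM1, a transcription factor of neuroendocrine cells, had at most 4 counts. In EtOH relative to FM, 5 of 44 related genes tested rose and 3 fell in control, where 11.5% of all genes rose and 9.81% fell. In KO 8 rose and 5 fell, beside 9.68% and 9.61% of all genes. In DHT relative to EtOH, 4 of 44 rose and 3 fell in control, beside 6.04% and 5.37% of all genes. In KO 3 rose and 1 fell with DHT, beside 4.43% and 3.24%.

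The starvation counts of each list stand beside the shares of all genes given above, and genes without an adjusted p could not pass. Of the 8 genes of granule cargo and prohormone processing, 5 had an adjusted p in starvation. In control 2 rose (PAM and PCSK1N) and 0 fell, and in KO 1 rose (PAM) and 1 fell (VGF). PAM, which amidates peptide hormones, rose in both lines (log2 fold change 0.59 and 0.71). VGF, a granin-like cargo, went from 95.3 ± 7.68 to 34.6 ± 2.29 normalized counts (SD, n = 2) in KO, a fall of 1.47 on the log2 scale (adjusted p = 0.000122), and from 47.0 ± 2.37 to 58.6 ± 15.6 in control, which did not pass. With DHT it rose in KO by 1.12. Of the 11 genes of synaptic vesicles and exocytosis, 8 had an adjusted p in starvation. In control 1 rose (CPLX1), in KO 2 rose (CPLX1 and SYT11), and 0 fell. CPLX1, a complexin that clamps vesicle fusion, rose in both lines (0.80 and 0.68). STX1A, the syntaxin of the fusion complex, was higher after DHT than after EtOH in control (0.89). Some of these calls were lost with 1 library left out: PAM in control without control FM replicate 1, control EtOH replicate 1 or either KO FM library (lowest value 0.47), VGF with DHT without either KO EtOH library or KO DHT replicate 2 (0.77), and CPLX1 without control FM replicate 2 in control (0.66) and without either KO FM library or KO EtOH replicate 2 in KO (0.52).

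Of the 13 neuropeptide and neurotensin receptor genes, only 4 had an adjusted p in starvation, where 9.81% of all genes fell in control and 9.61% in KO. Of the 4, 0 passed in control and 1 fell in KO. This was GAL, which encodes galanin and was the most abundant neuropeptide gene of the list. It had 1204 ± 47.3 normalized counts in KO FM and 583 ± 18.4 in KO EtOH (log2 fold change -1.05, adjusted p = 1.43e-08). GAL was also lower in KO than in control after EtOH (-0.81) and DHT (-0.62), calls that were lost without control EtOH replicate 2 in EtOH (-0.52) and without control DHT replicate 2 or KO DHT replicate 1 in DHT (at the least -0.45). NTSR1, a neurotensin receptor, had 10 to 33 counts and the sorting receptor SORT1 894 to 1593.

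Of the 11 lineage transcription factors, 5 had an adjusted p in starvation. ONECUT2 fell in starvation in both lines (-0.86 in control and -0.69 in KO), while 0 rose in control and 1, PROX1, in KO. The ONECUT2 calls were lost without control EtOH replicate 2 in control (-0.57) and without KO FM replicate 1 or KO EtOH replicate 1 in KO (at the least -0.51). HES6, a Hairy-related factor, rose with DHT in both lines (1.27 and 1.07) and did not pass in starvation. POU3F2, with 9 to 67 counts, went the other way, falling with DHT in control. It was higher in KO than in control after DHT. Of the 16 REST cofactors and regulators, 15 had an adjusted p in starvation, and 1 rose in control and 2 in KO and 0 fell. RCOR3, a CoREST protein, rose in KO (0.60, and 0.57 without KO FM replicate 2, under the fold minimum). The other riser, in both lines, was RCOR2, a CoREST protein with 19 to 82 counts. RCOR2, PROX1, POU3F2, PCSK1N, SYT11, NCAM1 and UCHL1 are named after their values were seen. SRRM4, the splicing factor that inactivates REST in neurons, had 0 to 10 counts.

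DDC rose most with starvation among the related genes named by the rule, in both lines. It encodes aromatic L-amino acid decarboxylase, the enzyme that makes dopamine and serotonin. Its normalized counts were 428 and 456 in control FM, 2232 and 2596 in control EtOH, and 539 and 605 in control DHT. In KO they were 1331 and 1242 in FM, 6767 and 6231 in EtOH, and 2491 and 2450 in DHT. The 6 groups did not overlap except that KO DHT reached into control EtOH. DDC rose 5.45-fold in control starvation (adjusted p = 2.14e-83) and 5.05-fold in KO (adjusted p = 1.06e-86) and fell with DHT by 2.08 and 1.40 on the log2 scale (adjusted p = 1.96e-62 and 7.93e-32). Unlike SYT4 and ENO2 it thus passed in both directions. DDC also passed as higher in KO than in control in FM, EtOH and DHT. Of the 8 diagnostic genes in the list of DDC, 7 had an adjusted p in starvation. In control 1 rose (DDC) and 2 fell (MAP2 and UCHL1). In KO 2 rose (DDC and NCAM1) and the same 2 fell, UCHL1 with 0 to 33 counts. MAP2, a microtubule protein of neurons, passed as lower in KO than in control in FM and EtOH. It fell in starvation in both lines (-0.71 and -0.69) and rose with DHT in KO (1.16). Its fall was lost without control EtOH replicate 2 in control (-0.37, adjusted p = 0.0583) and without KO FM replicate 1 or KO EtOH replicate 1 in KO (at the least -0.63). DLL3, an inhibitory Notch ligand that marks neuroendocrine carcinoma, passed only in FM among the comparisons of the lines (0.63 higher in KO), and was lost without any 1 of the 4 FM libraries (lowest value 0.52).

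**Figure D5:**
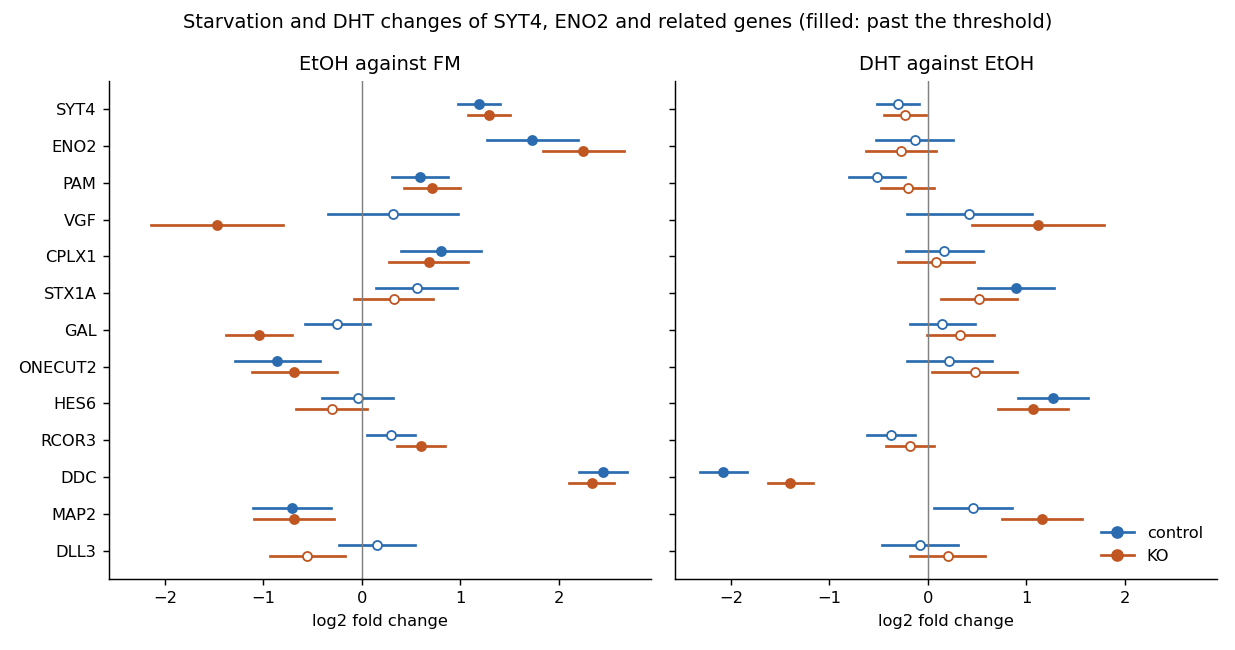
Log2 fold changes (horizontal axes) with 95% intervals of SYT4, ENO2 and 11 related genes in EtOH against FM and DHT against EtOH, blue for control and orange for KO, filled where the threshold was passed. DDC rose with starvation and fell with DHT in both lines, whereas SYT4 and ENO2 rose with starvation and did not pass with DHT.

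The genes whose pattern was most like that of each marker were found by Pearson's r of the log2 normalized counts over the 12 libraries, which share lines and treatments, among 11374 genes. For ENO2 these were BIK (r = 0.99), PLEKHB1 (0.985) and FAM219B (0.984). For SYT4 they were GOLGA8B (0.985), which belongs to a family of near-identical copies and is uncertain, SP6 (0.982) and COL27A1 (0.981). For REST they were ZBTB21 (0.965), APC (0.962) and FRS2 (0.954). Among the markers themselves r was 0.848 for ENO2 and SYT4, -0.431 for ENO2 and REST and -0.376 for REST and SYT4.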

How the data were processed

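The authors sequenced stranded poly(A) libraries, aligned the reads to GRCh37 and counted them per Ensembl gene, and they deposited raw read counts with no normalization. The submitters' processing notes name CASAVA 1.7, TopHat2 2.0.11 and HTSeq 0.5.3p3. The strand setting and Ensembl release are not given in the sources used here. Reads with more than 1 alignment, or over more than 1 gene, are not counted by HTSeq, which lowers genes with close copies or overlaps. Its tally rows, 26.9% to 31.5% of all reads counted, were left out.

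Gene identifiers were matched to GENCODE symbols on GRCh37 (55665 of 63677). PECAM1 was not matched. Genes with at least 10 counts in sum (26156) were fitted with DESeq2 1.42.0 in R 4.3.3, 1 mean per group, with unshrunken fold changes and Wald intervals. DESeq2 gives no adjusted p to genes of low mean count, and these stayed without one. Alternatives were edgeR 4.0.16, TMM factors, other count filters, no fold minimum, a replicate block, the compared groups alone and each library left out. Over 15 pairs of groups the same-numbered replicates had correlated deviations of -0.415 to 0.692, with 6 above 0.1, so the numbers were not taken as pairs. The fit was run on simulated counts with the same spread in every group, for DHT against EtOH in control only. The changed genes had a mean of at least 50 counts. It thus says nothing about scarce genes or groups of unequal spread. The markers and gene lists were chosen with earlier results of these data known. Related genes were named where they passed in at least 1 comparison of starvation, DHT or line, were among the 3 largest changes of their list in control starvation and had a mean of at least 50 normalized counts. In the main fit a p-value sets a fold change against a spread estimated over all 6 groups of 2 replicates, not only the groups compared. It covers no variation beyond these libraries.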

Additional observations from a re-analysis of the deposited data

Results flagged for a closer look

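The difference of the responses between the lines passed its own test for 2 related genes. These were 1 of 30 related genes tested for starvation and 1 of 32 for DHT. Of all genes, 1.39% and 0.408% passed. For VGF the starvation response in KO minus that in control was -1.785 on the log2 scale (SE 0.48, adjusted p = 0.0204), and it was lost in 7 of 19 alternatives (adjusted p up to 0.281), each leaving out 1 FM or EtOH library. For DDC the DHT response in KO minus that in control was 0.6814 (SE 0.17, adjusted p = 0.0153), and it was lost in 12 of 19 alternatives (adjusted p up to 0.964), among them edgeR (0.7128, adjusted p = 0.139) and the compared groups alone.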

How the results depend on the processing

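The counts of markers, the fold changes of SYT4, ENO2, SYP and REST and those of the related genes named by the rule were recomputed under 19 alternatives: 7 other settings and each of the 12 libraries left out, where a lone library was assumed to vary like the other groups. SCG3 had a value in 18 of them, and the other genes were not recomputed. The starvation rises of SYT4 and ENO2 in both lines, their difference of DHT from FM, and the ENO2 difference between lines after EtOH and DHT passed in all 19. Of all recomputed fold changes, 593 under other settings and 954 with a library left out kept direction and side of the threshold. A call was lost by 5 under other settings and 70 with a library left out, and gained by 6 and 2. The direction reversed in 3 and 18. In starved control cells the replicate block gave 0.89 for SYP (adjusted p = 0.0551), which then no longer passed, and the replicate numbers were not shown to pair the samples. The call was also lost with each library left out.

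With no fold minimum 1 marker, SYT4, passed for DHT in control. Between the lines in EtOH, edgeR counted 2 markers, with SCG3 added. Between the lines in FM, edgeR, TMM factors and the filter of 10 counts in every sample each counted 2, with ENO2 added, the fit of the compared groups alone counted 0, and leaving out libraries gave 0 to 2, with 0 without any 1 control FM, KO FM or KO EtOH library and 2 without either control EtOH library. The cause was not tested.

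Reversed values were all small and never passed. REST turned to 0.006815 in KO DHT against FM with the filter of 10 counts in every sample, and its line difference in DHT response to 0.01619 with edgeR and 0.01601 with TMM factors. With libraries left out, SYT4 ranged from -0.04327 to 0.01685 between lines in EtOH, from -0.05628 to 0.1707 in DHT, and from -0.04019 to 0.1856 for the line difference in DHT response. SYP in KO DHT against FM ranged from -0.1874 to 0.01924. REST ranged from -0.2198 to 0.199 for DHT in control, -0.2221 to 0.1199 for DHT in KO, -0.1862 to 0.1561 for KO DHT against FM, -0.1572 to 0.261 between lines in EtOH, -0.1625 to 0.1799 in DHT, and -0.2395 to 0.1792 for the line difference in DHT response. Depth limited CHGA, CHGB, SCG2, SCG3 and NTS, whose intervals were wide or absent.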
